A study of Mus musculus with 4 samples.

Results

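Histone lysine demethylases (Kdm), histone lysine methyltransferases (Kmt), chromodomain helicase remodellers (Chd) and subunits of SWI/SNF-type remodellers (Smarc) are described here in B16-F10 cells, an established mouse melanoma line. Members were all genes of the count table whose symbol begins with Kdm or Kmt or Chd and a digit, or with Smarc and a letter from a to e, without pseudogene (-ps) and antisense (os) names, and with at least 10 counts in 2 or more libraries. Of 53465 genes in the table, 50 symbols matched and 46 passed the count rule: 16 Kdm, 8 Kmt, 10 Chd and 12 Smarc genes. The 4 matching genes left out were Kdm5d and Smarca1, with no count in any library, the pseudogene Kdm4dl with 2 counts in 1 library, and Kdm4d with at most 5 counts.

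After infusion into zebrafish, fluorescent B16-F10 cells were taken back into culture (IMDM, 10% FBS), and polyA RNA was sequenced from 4 libraries. In 2 libraries the cells had left the vessels (extravasated), and in 2 they had been infused and had not (the control in the series' design text); line, host, medium and kit are labelled alike in both groups. The growth text describes extravasated cells for all 4 libraries, so the groups were taken from the source name and the field on extravasation. The titles carry 1 number for both extravasated libraries and another for both controls, so whatever it marks and the group cannot be told apart. Separate cultures or fish within a group are not stated, and the p-values therefore cover only the spread between these 4 libraries, which may be technical. Library numbers only name the libraries.

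Library totals came to 11705904 and 16430477 counts for the non-extravasated and 13256522 and 19674733 for the extravasated libraries. The 9 melanocyte markers checked (Mitf, Pmel, Tyr, Tyrp1, Dct, Mlana, Sox10, Slc45a2, Gpr143) were present in every library and summed to 24252 to 29594 CPM in the non-extravasated and 30896 to 31862 CPM in the extravasated libraries. CPM are read counts scaled to library size, here with TMM factors. Of 14 fibroblast, endothelial and leukocyte markers, 7 had no count in any library (Dcn, Lum, Cdh5, Kdr, Ptprc, Cd3e, Adgre1), and all 14 together summed to 13.9 to 14.1 and 15.8 to 17.6 CPM in the same groups. Within the melanocyte list, Mitf and Tyr fell and Pmel, Sox10 and Gpr143 rose by the edgeR test used for the members; once corrected for GC content and length, Tyr turned and was called higher with Mlana and Gpr143, and Mitf, Pmel and Sox10 were not called. Their part in the members' differences was not tested.

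DNA in the nucleus is wound on histones, and these families act on how it is packed. Kmt enzymes add methyl groups to histone lysines and Kdm enzymes remove them; the lysine decides the effect, methylation of histone H3 lysine 4 marking active promoters and enhancers, and that of H3 lysine 27 or lysine 9 silent chromatin. Chd proteins and the Smarc ATPases use ATP to slide, evict or space nucleosomes, and most other Smarc proteins form the structural core of the BAF complexes around such an ATPase. In the melanocyte lineage the BAF ATPase Smarca4 (BRG1) is known as a cofactor of Mitf.

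Of the 46 members, 26 differed between the groups, and most of those were lower in extravasated cells, among them the demethylase Kdm7a, the methyltransferase Kmt2c, the remodellers Chd2 and Chd6 and the BAF ATPase Smarca2. By edgeR's quasi-likelihood test with Benjamini-Hochberg adjustment over all 12320 genes tested (called: adjusted p under 0.05), 22 of 46 members fell and 4 rose. The background was high: over all genes 25.9% were called lower and 19.1% higher, 45.1% in all. Of the 22, 19 fell 2-fold or more, a class that held 17.1% of all genes; no member rose 2-fold, against 1.75% of all genes. The 2 extravasated libraries lay below both others for 25 members and above both for 10, while over all genes tested 39% did the first and 37.3% the second. The families differed in their counts. Of the Kdm genes 8 of 16 fell, of the Kmt genes 4 of 8 and of the Chd genes 6 of 10, and none of these 34 genes rose (0 by edgeR at an unadjusted p under 0.05 and 0 by DESeq2); of the Smarc genes 4 of 12 fell and 4 rose. Family median log2 fold changes (extravasated over non-extravasated) were -0.43 for Kdm, -0.66 for Kmt, -0.99 for Chd and 0.17 for Smarc, beside -0.0202 over all genes. These differences between families were not tested. In bulk RNA, fewer cells with a transcript and less of it per cell cannot be told apart.

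**Figure D1:**
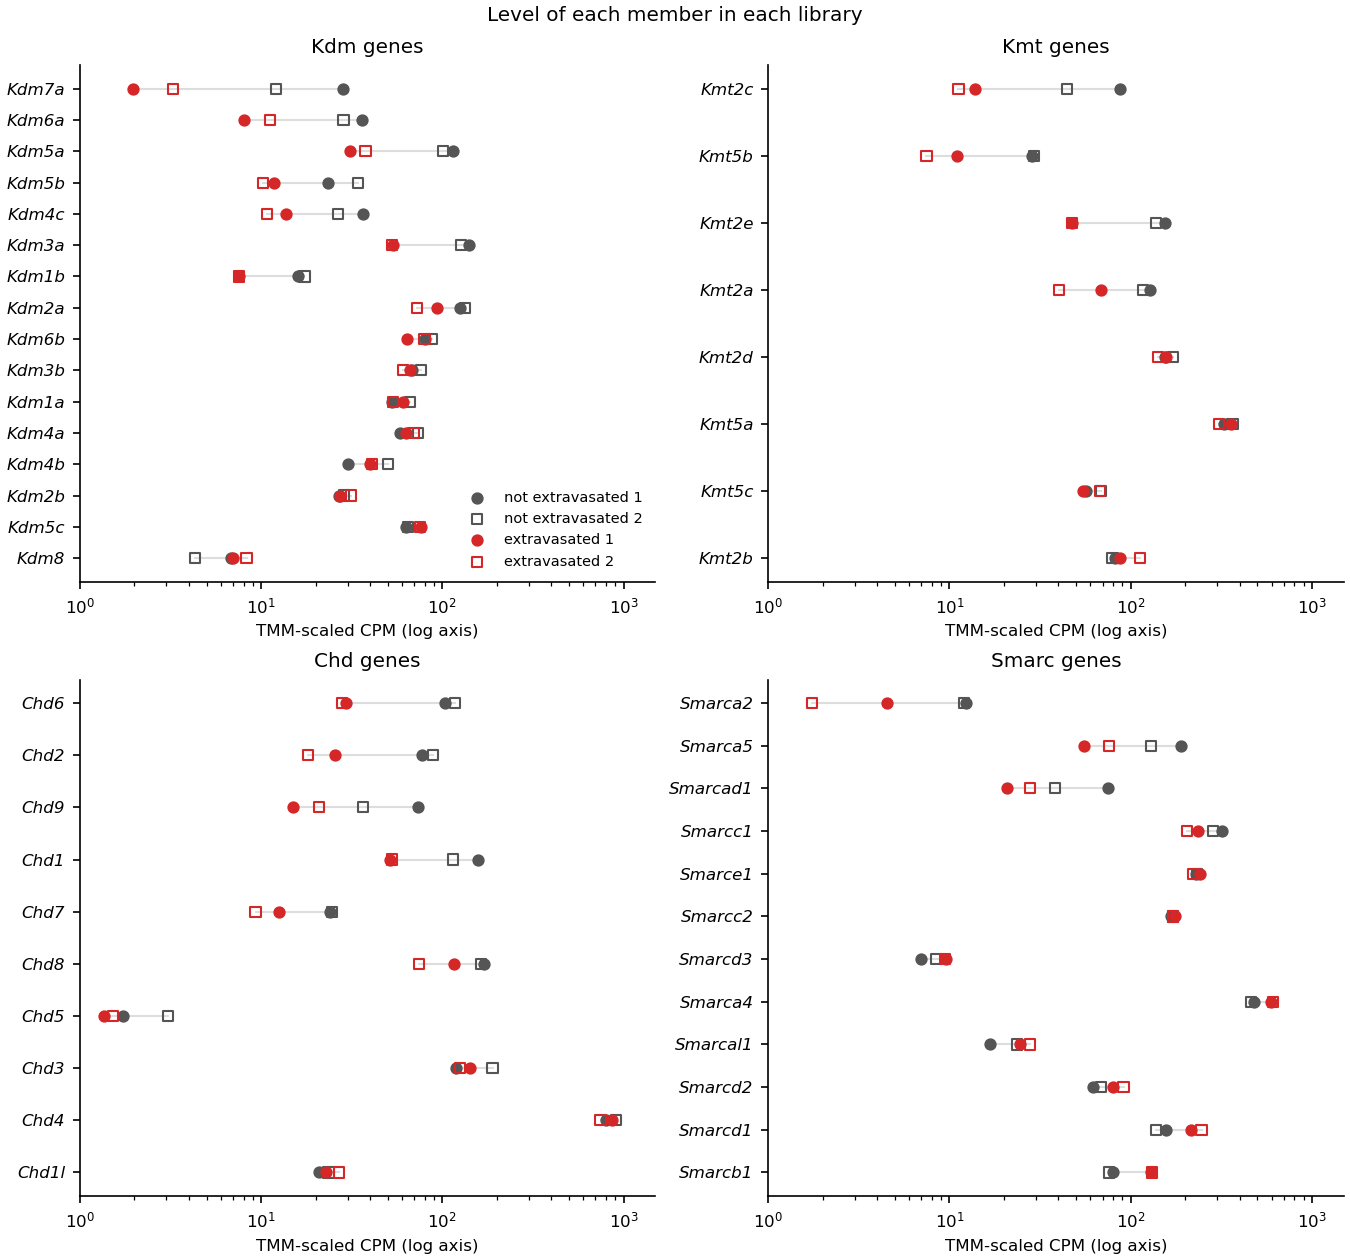
TMM-scaled CPM of each member (log axis, 1 row per gene, 1 panel per family) in the 2 non-extravasated (grey) and 2 extravasated (red) libraries; filled circles are library 1, open squares library 2, and rows run from the lowest log2 fold change at the top to the highest at the bottom. Red points lie left of grey ones for the upper rows of all 4 panels, as in Kdm7a, Kmt2c, Chd6 and Smarca2, and right of them for Smarcb1 and Smarcd1.

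Base composition moved with the fold changes. Across all tested nuclear coding genes, Spearman's rho between the log2 fold change and the GC content of the transcript was 0.74, and for transcript length it was -0.38 (11122 genes, which share libraries and are not replicates); across the 46 members the same values were 0.76 and -0.59. All 11 members with under 46% GC fell, as did 11 of the 15 with 46 to 52%, and none of the 20 with 52% or more; all 4 that rose were among these 20. Over all genes in the same bands (limits chosen after the values were seen), 67.4%, 22.7% and 1.61% fell, and 0.883%, 8.65% and 39.1% rose. In the band of 52% or more, 20% of the members rose. The families were also long: median transcript lengths were 5549 bases for Kdm, 7886 for Kmt, 8638 for Chd and 3920.0 for Smarc, against 2872 over all genes. A fit corrected for both was therefore made as well: the part of each library's deviation that followed GC content and length across genes was removed as an offset before the same test. After it 9 members were lower and none higher (2 higher at an unadjusted p under 0.05 in edgeR), 19.6% of the members against 5.8% of all genes called lower and 8.24% called higher (14% in all). All 9 had also fallen without correction: Kdm3a and Kdm7a; Kmt2c, Kmt2e and Kmt5b; Chd2, Chd6 and Chd7; and Smarca2. Corrected family medians were -0.21 for Kdm, -0.48 for Kmt, -0.29 for Chd and 0.0548 for Smarc, against 0.0414 over all genes. Corrected calls rested on both extravasated libraries: without extravasated library 1 or 2, 0 of 12320 genes passed in the corrected edgeR fit (2412 and 2065 at an unadjusted p under 0.05, among them 11 members each). There the 9 genes had adjusted p-values of 0.0728 to 0.308, all with negative fold changes. Kdm7a also lost its corrected call without non-extravasated library 1 (-0.87, adjusted p = 0.0578) and Chd7 without non-extravasated library 2 (-0.64, adjusted p = 0.0613). With the correction the rho over all coding genes was 0.0123 for GC content and -0.016 for length, and over the 46 members it was 0.30 and -0.33, so part of the relation remained among the members.

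**Figure D2:**
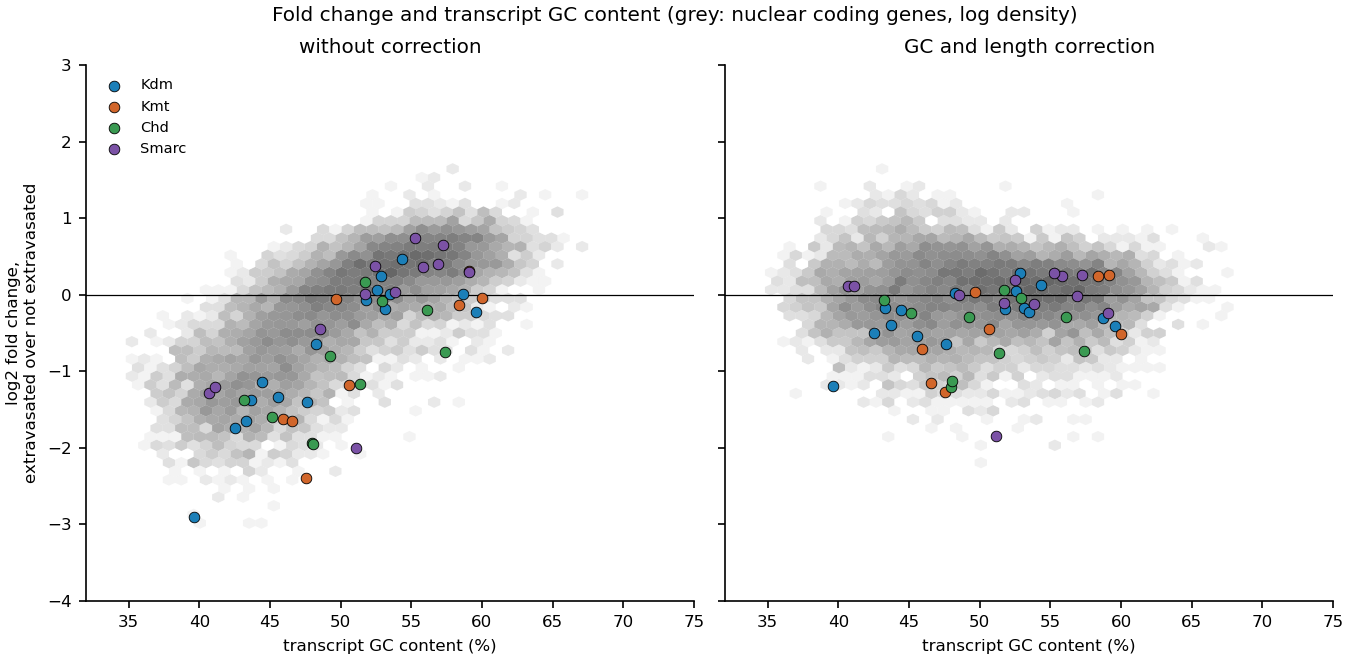
Log2 fold change (y axis, extravasated over non-extravasated) against transcript GC content in percent (x axis) for the 46 members, coloured by family, over the density of all tested nuclear coding genes in grey; the left panel is without and the right panel with GC and length correction. On the left the members follow the rising grey band, and on the right Kdm7a, Smarca2, Kmt2c and Kmt5b with Chd2 and Chd6 lie at the lower edge of a flat one.

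Among the demethylases, Kdm7a, which removes methyl groups from H3 lysine 9 and lysine 27, fell furthest. Its levels were 28.4 and 12 CPM in the non-extravasated and 1.97 and 3.26 CPM in the extravasated libraries, with counts of 327 and 208 against 26 and 62. The groups did not overlap, but non-extravasated library 1 stood 2.36-fold above library 2. Without library 1 the log2 fold change was -2.17, in a fit with only 1 control library and so no spread between controls. The log2 fold change was -2.91 ± 0.497 (SE; adjusted p = 0.00682), a 7.51-fold fall, and -1.20 ± 0.296 (SE; adjusted p = 0.0371) after correction; its transcript has the lowest GC content of all members (39.6%). Kdm3a, an H3 lysine 9 demethylase known as a target of hypoxia-inducible factor (GRCm38 chromosome 6, 71588972 to 71632990), measured 141 and 127 CPM in the control and 53.5 and 52.6 CPM in the extravasated libraries. Both groups were tight and far apart, a 2.52-fold fall with a log2 fold change of -1.34 ± 0.13 (SE; adjusted p = 0.000765) and of -0.54 ± 0.12 (SE; adjusted p = 0.0277) after correction. Its closest relative Kdm3b was at 67.9 and 76 CPM against 66.1 and 60.7 CPM and was not called (log2 fold change -0.18, adjusted p = 0.302; -0.17 after correction).

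The H3 lysine 4 demethylases of the Kdm5 group split. Kdm5a, at 115 and 101 CPM in the non-extravasated and 30.9 and 37.6 CPM in the extravasated libraries, fell 3.15-fold (log2 fold change -1.65), and Kdm5b, known for marking slow-cycling melanoma cells, fell 2.64-fold (-1.40). Neither kept its call after correction, where the values were -0.18 (adjusted p = 0.509) and -0.64 (adjusted p = 0.125). The X-linked Kdm5c was at 63.3 and 64.8 CPM against 76.2 and 75.4 CPM. Its extravasated libraries were the higher ones, yet the difference was not called (log2 fold change 0.24, adjusted p = 0.151; 0.28 after correction). The H3 lysine 27 demethylases also differed: Kdm6a (UTX) stood at 36.1 and 28.5 CPM against 8.1 and 11.2 CPM, a 3.33-fold fall with a log2 fold change of -1.73 ± 0.226 (SE; adjusted p = 0.00156), while Kdm6b (JMJD3) stood at 80.3 and 87.2 against 63.7 and 79.8 CPM and was not called (-0.22, adjusted p = 0.264). After correction neither was called and they lay close together, at -0.49 (adjusted p = 0.133) and -0.40 (adjusted p = 0.0856).

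Of the Kdm4 enzymes, which act on H3 lysine 9 and lysine 36, Kdm4c fell 2.58-fold from 36.7 and 26.6 to 13.7 and 10.8 CPM (log2 fold change -1.37; -0.39 and not called after correction). Kdm4a and Kdm4b had values near 0 (0.0082 and 0.0092; -0.23 and -0.30 after correction), and Kdm4b differed 1.66-fold between the non-extravasated libraries. Kdm2a, a demethylase of H3 lysine 36, fell 1.56-fold, from 126 and 134 to 93.7 and 72.5 CPM, and its corrected value was 0.0223; Kdm2b was not called (0.0683). The flavin-dependent H3 lysine 4 demethylases did not move alike either. Kdm1b (LSD2) fell 2.21-fold from 16.1 and 17.4 to 7.57 and 7.58 CPM, with a corrected log2 fold change of -0.19 (adjusted p = 0.531), and Kdm1a (LSD1) was at 53 and 66.3 CPM against 60.4 and 53.3 CPM, with overlapping groups (-0.0714). In the annotation 505 bases of the Kdm1b exons overlap Dek on the other strand, which had 9743 counts over the 4 libraries against 729 for Kdm1b, so the Kdm1b value is uncertain without the strand setting of the counting. Kdm8, a JmjC protein, stood at 6.86 and 4.34 against 6.97 and 8.32 CPM, and its log2 fold change of 0.47 was not called (adjusted p = 0.236). Leaving out extravasated library 2 ended the calls of Kdm1b (-1.18, adjusted p = 0.0517), Kdm2a (-0.51, adjusted p = 0.105) and Kdm5b (-1.34, adjusted p = 0.0621). Without non-extravasated library 1, Kdm8 was called higher with 0.82, in a fit with only 1 control library.

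The Kmt2 genes encode the large H3 lysine 4 methyltransferases of the MLL group, and 3 of the 5 fell. Kmt2c (MLL3), an enhancer methyltransferase mutated in many tumours (GRCm38 chromosome 5, 25271798 to 25498783), was at 87.9 and 44.6 CPM in the control and 13.9 and 11.2 CPM in the extravasated libraries. The control libraries differed 1.97-fold from each other, and both lay at least 3-fold above the extravasated ones. The 5.27-fold fall was a log2 fold change of -2.40 ± 0.36 (SE; adjusted p = 0.00553) and of -1.27 ± 0.216 (SE; adjusted p = 0.0133) after correction. Kmt2d (MLL4), its close relative, was at 155 and 172 CPM against 156 and 142 CPM with overlapping groups (log2 fold change -0.13, adjusted p = 0.426; 0.24 after correction). Kmt2e, whose SET domain is not known to methylate histones (GRCm38 chromosome 5, 23434441 to 23504235), fell 3.09-fold, from 155 and 138 to 47.3 and 47.3 CPM, with a log2 fold change of -1.63 ± 0.132 (SE; adjusted p = 0.000719) and of -0.71 ± 0.124 (SE; adjusted p = 0.014) after correction. The extravasated values of Kmt2e were nearly identical; 972 bases of its exons overlap those of Srpk2 on the other strand, and the strand setting of the counting is not given in the sources used here. Kmt2a (MLL1), the regulator of Hox genes, fell 2.27-fold from 128 and 117 to 68.3 and 40.4 CPM and lost its call after correction (-0.45, adjusted p = 0.182). Its close relative Kmt2b was at 81.6 and 79.4 CPM against 87.3 and 113 CPM, with the extravasated libraries higher and no call (0.31, adjusted p = 0.13; 0.26 after correction).

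The Kmt5 enzymes methylate H4 lysine 20 in steps. Kmt5a (SET8), which sets the first methyl group, was at 328 and 365 CPM against 359 and 308 CPM, with overlapping groups (log2 fold change -0.056, adjusted p = 0.75). Kmt5b (SUV420H1), which adds further groups, fell 3.15-fold from 28.6 and 29.2 to 11 and 7.48 CPM, a log2 fold change of -1.66 ± 0.225 (SE; adjusted p = 0.00179) that was -1.15 ± 0.185 (SE; adjusted p = 0.0109) after correction. Kmt5c (SUV420H2) stood at 56.7 and 68.9 CPM against 54.3 and 67.6 CPM and was not called (-0.0439); its corrected value was -0.51 (adjusted p = 0.0511), and with the longest coding transcript of each gene used for the correction it was called lower (-0.53, adjusted p = 0.0433). That version called 10 members lower and none higher, against 5.46% of all genes lower and 8.08% higher (13.5% in all). The uncorrected calls of all 4 Kmt genes that fell held without each library in turn.

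Of the Chd remodellers, Chd6 and Chd2 fell furthest. Chd6, a remodeller of the third subfamily (GRCm38 chromosome 2, 160946978 to 161109075), was at 103 and 118 CPM in the control and 29.4 and 28 CPM in the extravasated libraries, and Chd2, of the first subfamily (GRCm38 chromosome 7, 73426638 to 73541830), at 77.2 and 88.9 CPM against 25.4 and 18.2 CPM. In both genes every control library lay well above both extravasated ones, and libraries of a group differed by less than the gap between groups. The log2 fold change of Chd6 was -1.95 ± 0.141 (SE; adjusted p = 0.000719), a 3.86-fold fall, and -1.13 ± 0.167 (SE; adjusted p = 0.00879) after correction. That of Chd2 was -1.93 ± 0.193 (SE; adjusted p = 0.000827), a 3.82-fold fall, and -1.20 ± 0.177 (SE; adjusted p = 0.00875) after correction; 2628 bases of its annotated exons are shared with 1810026B05Rik on the same strand, which had 230 counts over the 4 libraries against 3108 for Chd2. Chd1, which reads methylated H3 lysine 4 at active genes, fell 2.59-fold, from 158 and 114 to 51.8 and 53 CPM (log2 fold change -1.37), and after correction its value was -0.0629 (adjusted p = 0.76).

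Among the other genes of the third subfamily, Chd7, the gene of CHARGE syndrome and a regulator of neural crest, fell 2.25-fold from 24.1 and 24.7 to 12.5 and 9.32 CPM, with a log2 fold change of -1.17 ± 0.207 (SE; adjusted p = 0.00435) and of -0.77 ± 0.191 (SE; adjusted p = 0.0385) after correction. Chd8 stood at 170.0 and 163 against 117 and 74.1 CPM, a log2 fold change of -0.81 that was -0.29 and not called after correction. Chd9 was at 73.5 and 36.6 against 15 and 21 CPM; its control libraries differed 2.01-fold, its log2 fold change was -1.60 (adjusted p = 0.0209) and its corrected value -0.23. The second subfamily, the ATPases of the NuRD deacetylase complex, gave no call. Chd4 stood at 799.9 and 913 CPM against 866 and 747 CPM with overlapping groups and a log2 fold change of -0.0877 ± 0.128 (SE; adjusted p = 0.606). Chd3 was at 119 and 189 CPM against 143 and 125 CPM (-0.20; -0.28 after correction), and Chd5, which is chiefly neural, had 53 counts or fewer in each library (-0.75, adjusted p = 0.184). Chd1l (ALC1), a remodeller of the DNA damage response, was not called (0.17). Without extravasated library 2, Chd7 (-1.0, adjusted p = 0.0528) and Chd8 (-0.55, adjusted p = 0.0801) were not called, and Chd9 lost its call without either extravasated library (-1.35 and -1.90, adjusted p = 0.0886 and 0.0676). Without non-extravasated library 1 Chd9 was at -1.02, and Chd3 (-0.50) and Chd5 (-1.07) were called lower. That fit has only 1 control library, so its calls take no account of spread between controls.

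BAF complexes run on 1 of 2 ATPases, and these moved apart. Smarca4 (BRG1; GRCm38 chromosome 9, 21616169 to 21704230) was at 479 and 461 CPM in the control and 598 and 614 CPM in the extravasated libraries, while Smarca2 (BRM; GRCm38 chromosome 19, 26605050 to 26778322) stood at 12.4 and 12 against 4.54 and 1.74 CPM. Groups did not overlap for either gene; the extravasated libraries differed 2.61-fold for Smarca2, with 60 and 33 counts against 143 and 208 in the others. Smarca4 rose 1.29-fold, a log2 fold change of 0.37 ± 0.11 (SE; adjusted p = 0.0285), and its corrected value was 0.25 (adjusted p = 0.162). Smarca2 fell 3.99-fold, a log2 fold change of -2.00 ± 0.423 (SE; adjusted p = 0.0102), and its corrected value of -1.85 ± 0.383 (SE; adjusted p = 0.0234) was the lowest of any member in that fit. That rank rested on extravasated library 2, without which the corrected values were -1.30 for Smarca2 and -1.58 for Kdm7a. Without extravasated library 1 the Smarca2 values were -2.78 uncorrected and -2.61 corrected. The GC content of its transcript is 51.1%, close to the 51.6% of the median member.

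The core and accessory subunits included the other rises. Smarcb1 (SNF5), a core subunit and tumour suppressor (GRCm38 chromosome 10, 75896769 to 75921617), was at 80.2 and 76.2 CPM in the non-extravasated and 129.7 and 131 CPM in the extravasated libraries. Replicates were within 1.05-fold of each other, and the 1.67-fold rise had a log2 fold change of 0.74 ± 0.122 (SE; adjusted p = 0.00342). Smarcd1 (BAF60A) rose 1.57-fold, from 157 and 138 to 215 and 246 CPM (log2 fold change 0.65), and Smarcd2 (BAF60B) rose 1.32-fold, from 61.8 and 68.5 to 80.4 and 91.5 CPM (0.40, adjusted p = 0.0472). After correction no rise was called: the values were 0.28 for Smarcb1, 0.26 for Smarcd1 and -0.0118 for Smarcd2. Smarcd3, of heart and muscle complexes, was at 6.94 and 8.45 CPM against 9.54 and 9.42 CPM and was not called, and 48.2% of its annotated exon bases overlap Chpf2 on the other strand, so its value is uncertain. Of the scaffold subunits, Smarcc1 (BAF155) fell 1.37-fold, from 319 and 284 to 236 and 204 CPM, with a corrected value of -0.000371, and Smarcc2 (BAF170) was at 166 and 172 CPM against 175 and 172 CPM (0.0384; -0.12 after correction). Smarce1 (BAF57) had overlapping groups and a log2 fold change of 0.00572 ± 0.118 (SE).

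The remaining Smarc genes act outside BAF. Smarca5 (SNF2H), an ATPase of the ISWI remodellers, stood at 190.3 and 129.6 against 55.6 and 75.7 CPM, a 2.43-fold fall (log2 fold change -1.28), and its close paralog Smarca1 had no count. Smarcad1, a remodeller of heterochromatin upkeep and DNA end resection, stood at 75.5 and 38.4 against 20.9 and 28 CPM (-1.21, adjusted p = 0.0404), with a 1.97-fold gap between its control libraries. Their transcripts are among the poorest in GC of all members (40.7% and 41.1%), and after correction both values turned positive and were not called (0.11 and 0.12). Smarcal1, which rewinds DNA at stalled replication forks, was not called (0.37, adjusted p = 0.176). Smarca4, Smarcad1 and Smarcc1 lost their calls without either extravasated library, with log2 fold changes of 0.41 and 0.31, -0.98 and -1.47, and -0.53 and -0.38 (lowest adjusted p = 0.0659). Smarcd1 lost its call without extravasated library 2 (0.51, adjusted p = 0.0888), and Smarcd2 without any library but non-extravasated library 2 (0.27 to 0.51). Smarcd2 also lost its call with DESeq2, Smarca4 and Smarcd2 with scaling by library totals, and Smarcad1 with RLE size factors. Without non-extravasated library 2, Smarcal1 was called higher (0.64), in a fit with only 1 control library.

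**Figure D3:**
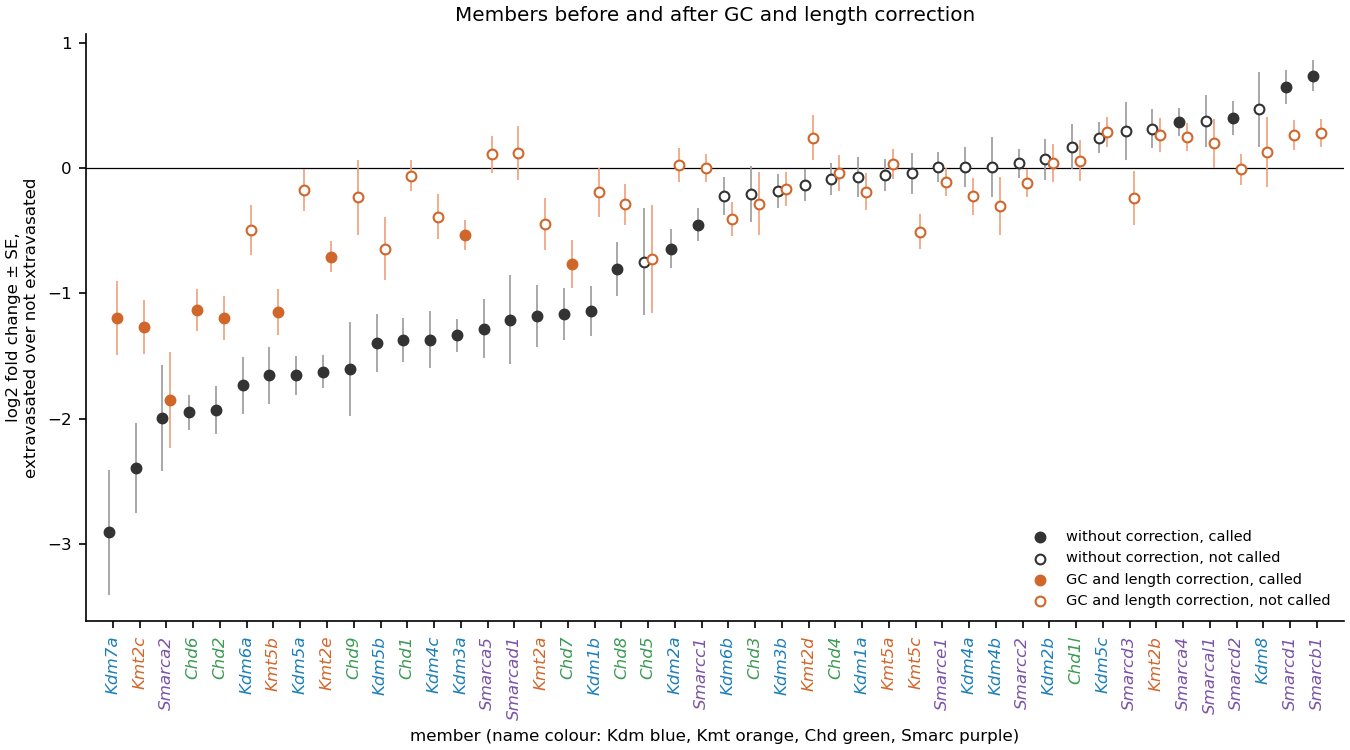
Log2 fold change ± SE (extravasated over non-extravasated) of the 46 members, ordered by the uncorrected value, without correction (black) and with GC and length correction (orange); filled points passed an adjusted p of 0.05. The 22 filled black points at the left become 9 filled orange points, and the 4 filled black points at the right have no filled orange counterpart.

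Close paralogs, which encode proteins of like function, served to compare genes within a library. In 21 pairs the ratio of read counts separated the groups in 17. Single genes also did so often, 39% of all genes tested lying lower and 37.3% higher without overlap. No share was taken over ratios of other gene pairs. In 16 pairs the paralog with the lower GC content had the lower log2 fold change, and after correction in 13. Over all nuclear coding genes the uncorrected fold change also rose with GC content (rho 0.74). For Kmt2c over Kmt2d the ratio was 0.568 and 0.259 in the non-extravasated and 0.0891 and 0.0789 in the extravasated libraries. For Kdm5a over Kdm5c it was 1.82 and 1.56 against 0.406 and 0.499, and for Kdm3a over Kdm3b 2.08 and 1.67 against 0.809 and 0.867. For Kmt2a over Kmt2b it was 1.57 and 1.48 against 0.782 and 0.358. These counts are not scaled for gene length. Per kilobase of merged exons, mean ratios in non-extravasated and extravasated libraries were 0.848 and 0.227 for Kdm5a over Kdm5c. They were 3.21 and 1.44 for Kdm3a over Kdm3b, and 0.878 and 0.328 for Kmt2a over Kmt2b. On that scale the more abundant gene of each of these pairs stayed the same. It changed for Smarcc1 over Smarcc2, with mean ratios of 1.27 in non-extravasated and 0.899 in extravasated libraries. The Smarca2 to Smarca4 ratio was 0.0259 and 0.0261 against 0.00759 and 0.00283. By group means this was the widest shift of the 21 (4.99-fold), barely above that of Kmt2c over Kmt2d (4.92-fold). It was lower in extravasated library 2, with 33 Smarca2 counts, than in library 1, with 60. The difference in log2 fold change between first and second gene remained largest for Smarca2 and Smarca4 after correction (-2.36 before and -2.10 after), followed by Kmt2c and Kmt2d (-2.26 and -1.51). For Kdm6a and Kdm6b it went from -1.51 to -0.0901, and for Kdm1b and Kdm1a from -1.07 to -0.00609. Pairs that share a gene are not independent, and these differences were not tested.

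**Figure D4:**
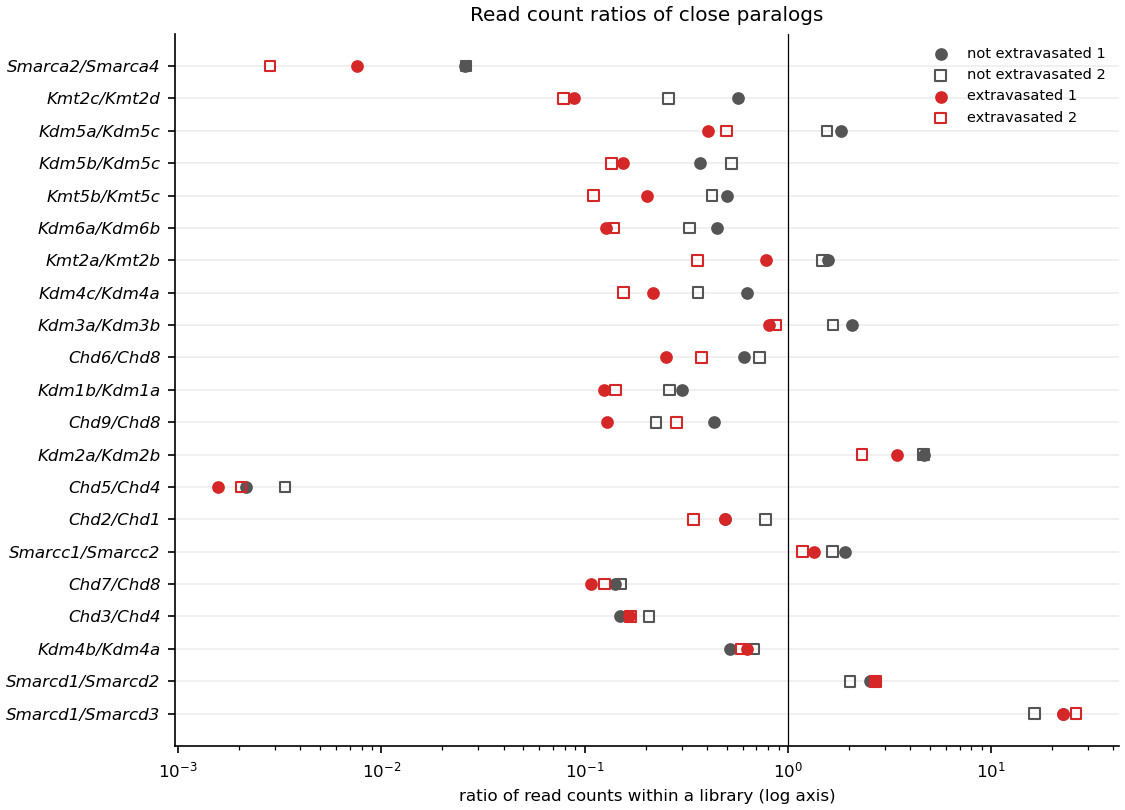
Ratio of read counts of 2 paralogs within each library (x axis, log scale) for 21 pairs, in the non-extravasated (grey) and extravasated (red) libraries; filled circles are library 1, open squares library 2, and pairs are ordered by the difference of their log2 fold changes. Red points lie left of grey ones from Smarca2/Smarca4 down to Kdm1b/Kdm1a, and the groups overlap for Chd9/Chd8, Chd2/Chd1, Chd3/Chd4 and Kdm4b/Kdm4a.

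Coding sequences of 2 pairs are shown for their base composition: Kdm6a and Kdm6b, which differ most in it, and Smarca2 and Smarca4, whose count ratio shifted most by a narrow margin. For each pair the codon-aligned stretch of 120 bases with the most identical bases was taken from the annotated transcripts (GENCODE M21, GRCm38; sense strand, 5′ to 3′), with G and C in capitals. The Kdm6 stretch (coding bases 3379 to 3498 of Kdm6a and 4105 to 4224 of Kdm6b) is identical at 98 of 120 bases but, at the third position of its codons, in only 19 of 40, where Kdm6a has 13 and Kdm6b 30 G or C. The Smarca stretch (coding bases 3610 to 3729 of Smarca2 and 3667 to 3786 of Smarca4) is identical at 107 of 120 bases and has 29 and 32 G or C at the third position. A stretch of Kmt2c and Kmt2d, found in the same way and not printed, is identical at 99 of 120 bases. There the third position has 26 G or C in Kmt2c and 27 in Kmt2d, and GC content is 55% and 53.3%.
Kdm6a: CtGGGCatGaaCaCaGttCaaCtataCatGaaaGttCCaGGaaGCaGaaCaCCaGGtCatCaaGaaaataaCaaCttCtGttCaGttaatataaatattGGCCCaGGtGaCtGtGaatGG
Kdm6b: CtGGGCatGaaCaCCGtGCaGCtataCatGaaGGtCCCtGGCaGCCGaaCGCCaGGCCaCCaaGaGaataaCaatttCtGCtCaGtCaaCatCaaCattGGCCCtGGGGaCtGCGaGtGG
Smarca2: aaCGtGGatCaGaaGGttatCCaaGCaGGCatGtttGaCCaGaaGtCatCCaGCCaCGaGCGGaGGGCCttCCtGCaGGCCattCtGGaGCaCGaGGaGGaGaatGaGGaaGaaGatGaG
Smarca4: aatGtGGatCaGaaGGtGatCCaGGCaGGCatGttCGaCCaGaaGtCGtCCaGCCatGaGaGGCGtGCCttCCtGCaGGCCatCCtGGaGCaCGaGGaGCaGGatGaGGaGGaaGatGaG
Transcript GC content is 42.5% against 59.6% for Kdm6a and Kdm6b and 51.1% against 55.8% for Smarca2 and Smarca4.

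Over whole coding sequences, GC content at the third codon position ran from 38.3% to 76.1% among members (median 57.7%, against 60.6% over 11129 tested coding genes). It was 38.3% to 61.5% in the 22 members that fell (median 45.2%), 49.9% to 76.1% in the 20 not called (median 62.2%) and 66.1% to 69.6% in the 4 that rose. Of the 21 paralog pairs, 12 held 1 gene that fell and 1 that did not, and in 11 of these the gene that fell was the poorer one, as with Kdm6a at 38.3% against Kdm6b at 64%, Kmt2c at 39.8% against Kmt2d at 59.9%, Kmt5b at 40.9% against Kmt5c at 65.6%, and Kdm5a at 43% against Kdm5c at 59.5%. The exception was Kdm1b, which fell, at 57.7% against 49.9% for Kdm1a. Smarca2 (61.5%) and Chd7 (58.6%) were the richest of those that fell. Annotated 3′ untranslated regions were also poorer in GC for the members that fell (median 38.7%) than for those not called (49.4%). Such values by call were not taken over all tested genes, so these counts and medians are not read as a trait of the members. Over all nuclear coding genes the uncorrected log2 fold change rose with transcript GC content (rho 0.74). Coding sequences were long: the median member had 3948 coding bases against 1398 over all tested coding genes.

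Promoter windows (250 bases before to 50 after each start, RefSeq, GRCm38.p6) were held for 34 of the 46 members, 47 windows in all. The hypoxia response core ACGTG, searched on both strands, lay in 5 of 22 windows of members that fell and in 2 of 25 windows of the others, against 26% of windows of all tested genes and 19.6% of all windows of the table. The windows with a match belonged to Kdm4c (4 matches), Kdm6a (3), and Kdm5b, Kdm7a, Kdm8, Kmt5b and Smarcb1 (1 each). No match lay in the 3 Kdm3a windows, which says only that these letters are not in them. Median promoter GC content was 65.7% for members that fell and 61.7% for the others.

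Partner subunits and other enzymes of histone methylation, taken from lists chosen with earlier results of these data known, were counted in the same fit and are read against the 25.9% of all genes called lower and 19.1% called higher. Of 19 tested BAF and PBAF partners 6 fell and 4 rose (median log2 fold change -0.12), shares of 31.6% and 21.1% that lie near those of all genes. Arid2 (-1.29), Pbrm1 (-1.70) and Phf10 (-0.89), subunits particular to PBAF, fell, and Dpf2, a reader of BAF, rose (0.61); after correction Phf10 (-0.74) and Dpf2 (0.59) were called. Of 10 ISWI partners 6 fell and none rose (0 by edgeR at an unadjusted p under 0.05 and 0 by DESeq2; median -0.61): Baz1a, Baz2b and Bptf, the large regulatory subunits, had log2 fold changes of -1.56, -1.82 and -1.46 and were called after correction too (-0.73, -0.92 and -0.75). Rbbp4, a histone chaperone of several complexes, was not called without correction (0.16) and was called higher after it (1.13). Of 12 NuRD partners 3 fell and 4 rose (median 0.15); these shares of 25% and 33.3% include Mbd3, which rose (0.81; 0.22 and not called after correction), and Gatad2b fell both without (-1.11) and with correction (-1.19). Of 18 INO80, SRCAP and TIP60 genes 2 fell and 6 rose (median 0.22), among them Ino80d (-1.97) and Vps72 (0.82), and all 8 lost their calls after correction.

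Among 13 tested partners of the Kmt2 enzymes in COMPASS complexes, 2 fell, Psip1 (-1.68; -0.65 after correction) and Ncoa6 (-1.16; -0.68), and 3 rose, Cxxc1, Wdr5 and Hcfc1 (0.70, 0.52 and 0.33). These 3 lost their calls after correction (0.25, 0.43 and 0.38), where Dpy30 (0.75) and Wdr82 (0.44) were called higher instead. Of 21 other histone lysine methyltransferases 12 fell and 5 rose (median -0.55). Nsd1, an H3 lysine 36 methyltransferase (-2.16; -1.05 after correction), fell, as did Ezh2, the catalytic subunit of PRC2 (-1.19; -0.41 and not called), while Dot1l, the H3 lysine 79 methyltransferase, rose (0.58; 0.44 and called). Of 10 PRC2 partners 6 fell and 1 rose (median -0.64), with Suz12 at -1.60 and Mtf2 at -1.76, and all 6 that fell lost their calls after correction. Of 11 partners of Kdm1a in the LSD1 complexes 6 fell and 1 rose (median -0.54); the corepressors Rcor1 (-1.04) and Phf21a (-0.89) were called lower after correction as well (-0.77 and -1.0), as was Rcor3 (-0.85 and -1.02). Of 13 other JmjC proteins 3 fell and 2 rose (median 0.0634): Jmjd1c, the third Kdm3-type gene, fell (-1.79; -0.50 and not called after correction), and Hif1an, the asparagine hydroxylase that restrains hypoxia-inducible factor, rose (0.46; 0.61 and called). Of 9 tested genes on the list of protein arginine methyltransferases, which holds Wdr77 beside the enzymes, 5 rose and none fell (again 0 by both measures, median 0.46). Prmt5 was at 0.57 and Prmt7 at 0.73. After correction 1 gene of this list was called, Wdr77, which is not such an enzyme, higher (0.79). The share called lower was highest for ISWI and PRC2 partners (60.0% each), other lysine methyltransferases (57.1%) and LSD1 partners (54.5%), and after correction 3, 0, 2 and 3 of their genes were called lower. Several genes stand in more than 1 list, and the lists were not tested as sets.

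Levels were compared between genes per kilobase of merged annotated exons, on the TMM-scaled CPM scale, giving the mean of each group. Chd4 (107 and 101 CPM per kilobase in non-extravasated and extravasated cells), Smarca4 (72.6 and 93.6), Kmt5a (65.3 and 62.8) and Smarcd1 (36.6 and 57.3) were the most abundant members by the mean over the 4 libraries. The lowest were Chd5 (0.251 and 0.151), Smarca2 (0.857 and 0.22), Kdm7a (2.01 and 0.26) and Kdm5b (1.74 and 0.663). Of the BAF core genes, Smarce1 (34.6 and 34.8), Smarcc1 (38.5 and 28.1) and Smarcc2 (30.4 and 31.3) came next, all above Smarcd2 (18.1 and 23.9). Smarcc1 stood above Smarce1 and Smarcc2 in non-extravasated cells and below both in extravasated cells, so its level is not set apart from theirs. Merged exons count every annotated isoform, so genes such as Smarcb1, with 7930 merged exon bases against 1660 in its principal transcript, read low on this scale. Per kilobase of principal transcript, both ends of the order changed. By the mean over the 4 libraries, Smarce1 (79.1 CPM per kilobase) and Smarcb1 (62.8) then stood above Smarcd1 (57.2). Kdm7a (1.19) then stood below Smarca2 (1.30), and Chd7 (1.73) below Kdm5b (2.28).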

How the data were processed

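Polyadenylated RNA of 4 B16-F10 libraries was sequenced with a stranded TruSeq kit, per the labels' protocols. The deposited values are raw read counts per gene, and the submitters' processing notes name bcl2fastq 2.18.0.12, STAR 2.5.3a and the genome build GRCm38; the counting program, its strand setting and the annotation release are not given in the sources used here. Gene identifiers were matched to GENCODE M21 (53360 of 53465, ignoring version numbers) for coordinates, transcript length and GC content.

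Counts were tested with edgeR 4.0.16 (R 4.3.3; TMM scaling, filterByExpr with at least 10 counts, robust quasi-likelihood F test) over 12320 genes with Benjamini-Hochberg adjustment and a threshold of 0.05. The GC and length correction fitted smooths (mgcv 1.9.3, basis size 10) of each library's log deviation on the GC content and length of each gene's principal transcript and entered them as offsets. The edgeR test without the correction was run on simulated counts with known changes. Those counts held no GC or length trend between libraries, and the correction itself was not tested in this way. The members and the lists of related genes were chosen with earlier results of these data known. Levels in every library are given for called members with the largest changes of each family, those called in its rarer direction and close paralogs. Genes named from each related list came from the 3 called per direction with the smallest adjusted p, but not all of these were named. No rule was set for the choice among them. Zmym2, Hdac2, Smyd2 and Smyd5 were among those left out, and each lost its call after correction. Rbbp4, Rcor3, Phf21a, Wdr77, Dpy30 and Wdr82 were added after their values were seen. The alternatives tried were DESeq2 1.42.0, RLE size factors, library totals, other expression filters, a title suffix term, the correction for GC content alone or with the longest coding transcript, which was chosen after seeing the data, and leaving out each library.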

Additional observations from a re-analysis of the deposited data

How the results depend on the processing

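The numbers of members called lower (22) and higher (4) did not move with a CPM filter, without a filter or with a term for the title suffix. DESeq2 gave 22 and 3 without Smarcd2, RLE size factors 21 and 4 without Smarcad1, and library totals 22 and 2 without Smarca4 and Smarcd2 (Smarc median 0.109). The labels give the groups no shared replicate numbers, and the title suffix term was the only pairing across groups that was fitted. With GC and length correction 9 were lower (2 Kdm, 3 Kmt, 3 Chd and 1 Smarc) and 0 higher (15 members at an unadjusted p under 0.05), and with the longest transcript 10 (2, 4, 3 and 1) and 0. GC correction alone left 16 lower (5 Kdm and 1 Smarc among them) and 0 higher; it called Kdm6b (-0.693), Kmt2d (-0.582) and Kmt5c (-0.521) lower. Family medians for Kdm, Kmt, Chd and Smarc were -0.21, -0.478, -0.288 and 0.0548 with the correction and -0.223, -0.508, -0.302 and 0.0452 with the longest transcript; GC alone gave -0.722 for Chd and -0.0349 for Smarc. Among members called with or without the respective correction, signs turned with GC and length correction for Kdm2a (0.0223), Smarca5 (0.11), Smarcad1 (0.118) and Smarcd2 (-0.0118), with the longest transcript for Smarca5 (0.106), Smarcad1 (0.107) and Smarcd2 (-0.0355), and with GC alone for Smarca4 (-0.036), Smarcad1 (0.0418) and Smarcd2 (-0.0338). Leaving out 1 library in turn gave 14 to 24 members lower (14 without extravasated library 2) and 1 to 5 higher (2 and 1 without extravasated library 1 and 2); by family it gave 5 to 8 Kdm lower and 0 to 1 higher, 3 to 8 Chd lower, and 2 to 4 Smarc lower and 1 to 5 higher. Medians ranged over -0.876 to -0.564 for Kmt, -1.23 to -0.938 for Chd and 0.0865 to 0.20 for Smarc. With the correction as well, 0 to 13 members were lower (13 without non-extravasated library 1, 8 without library 2) and 0 to 1 higher: 0 to 4 Kdm (2 without non-extravasated library 2), 0 to 4 Kmt, 0 to 4 Chd (2 without non-extravasated library 2) and 0 to 1 Smarc lower. In the order without extravasated library 1, extravasated library 2, non-extravasated library 1 and non-extravasated library 2, corrected medians were -0.245, -0.284, -0.328, -0.0535 for Kdm, -0.512, -0.382, -0.59, -0.352 for Kmt, -0.475, -0.391, -0.484, -0.185 for Chd and 0.142, -0.0641, 0.00943, 0.0104 for Smarc. With both, the sign differed from the reported one, again among members called in either fit, for Kdm5a (0.0244), Chd1 (0.0176), Chd9 (0.0731), Smarca5 (0.282) and Smarcad1 (0.286) without extravasated library 1; Kdm2a (0.106), Smarcc1 (0.0248) and Smarcd2 (-0.0626) without extravasated library 2; Kdm4b (-0.621, called), Chd1 (0.010), Chd9 (0.143), Smarca5 (0.154), Smarcad1 (0.434), Smarcc1 (0.039) and Smarcd2 (-0.0777) without non-extravasated library 1; and Kdm2a (0.168), Kmt2d (0.524, called higher) and Smarca5 (0.0662) without non-extravasated library 2. Apart from fewer libraries in these fits, the cause was not tested; each lone library is assumed to vary like the other group. Chd5, Kdm8 and Smarca2 had the fewest counts of the members.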
